A study of Mus musculus with 24 samples.

Results

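The mitochondrial ribosomal protein genes, whose mouse symbols start with Mrpl or Mrps followed by a number, were followed in tibialis anterior muscle of Vps39+/- and wild-type (WT) mice. A search of the array annotation for these symbols found 76 genes, each with 1 probe set, among 19572 probe sets that carried a gene symbol (19505 distinct symbols). The choice used symbols and no measured value. The groups were 6 Vps39+/- females, 6 WT females, 6 Vps39+/- males and 6 WT males, all untreated and on the C57BL/6J background. Their age was 4 months by the paper's reporting summary, while a supplementary legend gives a range reaching 1 month higher. Vps39+/- mice carried 1 germ-line allele of Vps39 in which a neomycin-EGFP cassette disrupts an exon, so every cell type of the muscle was heterozygous. WT mice carried 2 intact alleles. Homozygotes die as embryos and were not part of the comparison. RNA from the whole homogenised muscle, a fast hindlimb muscle, was hybridised to Clariom S mouse arrays, 1 array for each mouse. In RNA from a whole muscle, fewer cells of a type and less RNA in each of those cells cannot be told apart.

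Mitochondria carry their own ribosome, the mitoribosome, which makes the few membrane subunits of the respiratory chain that are encoded in mitochondrial DNA. Its RNA comes from the mitochondrial genome, but all its proteins are encoded in the nucleus, made in the cytosol and imported. The small subunit holds the decoding site for the messenger RNA, and the large subunit holds the site of peptide bond formation and the tunnel through which the new chain leaves. The proteins are of 2 kinds, those with a counterpart in bacteria and those that the mitoribosome gained later. The roles given below are those known from human, pig and cattle mitoribosomes and from bacteria.

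Of the 76 genes, 25 encode proteins of the small subunit and 50 of the large subunit. Mrps18a and Mrps30 are counted with the large subunit, where their proteins sit despite the names. Mrps36 was kept apart from both subunits, since its protein is now placed in the 2-oxoglutarate dehydrogenase complex, but it stays in all counts of the 76. Of the 75 others, 44 encode a protein with a bacterial counterpart and 31 one without. RefSeq also lists Mrps6 and Mrpl53, which were not among the named probe sets and are not analysed here. It lists pseudogene copies of Mrpl23, Mrpl27, Mrpl48 and Mrps36 as well, so the values of these genes are uncertain where probes match a copy.

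Promoter sequence was a property that the choice of genes did not use. RefSeq windows on GRCm38.p6, from 250 bases before to 50 after the start of transcription, were at hand for 67 of the 76 genes and for 15691 of the genes tested. On either strand, the ETS motif CCGGAAG, as bound by GABPA, was present in 25 of the 67 windows (37.3%), against 13.2% of all windows. The NRF1 motif (GCGCA, any base N, then GCGC) was present in 13 (19.4%, against 7.63%), and the YY1 motif AAGATGGCG in 8 (11.9%, against 2.23%). The SP1 motif GGGCGG stood in 33 windows (49.3%, against 51.2%), the E-box CACGTG in 5 (7.46%, against 9.26%) and the TATA box TATAAA in 5 (7.46%, against 14.6%). The median share of G and C was 58% in the windows of these genes and 57% in all windows. Each motif was counted on its own, whether or not it overlapped another, and a match describes letters in a window and not a bound site. NRF1 and GABPA are textbook activators of nuclear genes for mitochondrial proteins.

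Stretches before the start are shown for some genes named below that hold an ETS or NRF1 motif there. They are read 5′ to 3′ on the strand of the gene with the motif in capitals. Mrpl11, Mrpl35 and Mrpl46, also named below, held neither motif in their windows, and Mrpl4 had no window. The Mrps26 stretch is chr2:130563718-130563756 (+) with the ETS motif read on the other strand, and that of Mrpl22 is chr11:58171586-58171642 (+) with the same motif. Those of Mrpl12, at chr11:120484531-120484590 (+), and Mrpl44, at chr1:79775958-79776017 (+), hold the NRF1 motif, as does that of Mrps21 at chr3:95871571-95871630 (-). In Mrpl12 and Mrps21 this motif is read on the other strand.
Mrps26: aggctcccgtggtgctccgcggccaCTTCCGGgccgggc
Mrpl22: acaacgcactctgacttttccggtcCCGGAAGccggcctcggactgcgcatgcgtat
Mrpl12: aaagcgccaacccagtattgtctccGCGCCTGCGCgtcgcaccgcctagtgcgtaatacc
Mrpl44: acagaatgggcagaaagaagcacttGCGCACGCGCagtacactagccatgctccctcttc
Mrps21: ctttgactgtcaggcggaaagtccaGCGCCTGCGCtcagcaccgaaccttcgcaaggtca

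Many of these genes start near the start of a gene that runs the other way, and whether the 2 share a promoter was not tested. For 27 of the 67 (40.3%) the start of another gene on the opposite strand lay within 1000 bases, head to head, against 2246 of the 15691 genes tested (14.3%). Mrps11 and Mrpl46, 1 gene for each subunit, start 42 bases apart. Mrps12 starts 147 bases from Sars2, the mitochondrial seryl tRNA synthetase. Mrpl43 starts 116 bases from Twnk, the helicase that unwinds mitochondrial DNA for copying. The bases between the 2 starts are shown for these 3 pairs on the strand of the gene named first. Capitals mark SP1 motifs in the first and second pair, read on the other strand in the second, and ETS motifs in the third. They are chr7:78783090-78783130 (+), chr7:28741822-28741967 (-) and chr19:45006443-45006557 (-).
Mrps11 to Mrpl46: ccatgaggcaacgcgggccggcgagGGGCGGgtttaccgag
Mrps12 to Sars2: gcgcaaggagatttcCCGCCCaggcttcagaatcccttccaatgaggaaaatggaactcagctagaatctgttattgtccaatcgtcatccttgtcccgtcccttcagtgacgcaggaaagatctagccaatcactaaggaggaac
Mrpl43 to Twnk: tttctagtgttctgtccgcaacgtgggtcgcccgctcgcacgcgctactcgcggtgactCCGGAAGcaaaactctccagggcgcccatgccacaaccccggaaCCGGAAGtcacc

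Values are log2 signals summarised by RMA, on which a difference of 1 stands for 2-fold. The median of an array was 5.55 at the lowest and 5.64 at the highest, and Pearson's r over all genes, which are not independent of each other, was at least 0.935 for any pair of arrays. The 12 muscle fibre markers averaged 13.03 to 13.12 in every array. Of 26 hepatocyte markers, 23 were measured, and their mean spanned 4.93 to 7.65 in Vps39+/- females, 5.15 to 11.64 in WT females, 4.91 to 10.11 in Vps39+/- males and, in WT males, 4.84 to 7.57. The 4 arrays of highest mean were WT female 2 (11.64), WT female 6 (10.49), Vps39+/- male 3 (10.11) and Vps39+/- male 2 (9.51), and results below are also given without them. The Vps39 probe set averaged 7.836 ± 0.461 in Vps39+/- mice and 7.499 ± 0.449 in WT mice (SD, n = 12 each; difference 0.34, SE 0.17, limma adjusted p = 0.709). Its probes may lie outside the disrupted exon, so it does not check the genotype labels. The paper reports lower Vps39 RNA in tibialis anterior of Vps39+/- mice, from quantitative PCR across the disrupted exon.

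The mean log2 values of the 76 genes ran from 6.27 for Mrpl36 to 11.58 for Mrpl42, with a median of 8.01, and none had a mean under 5. The median over all named probe sets was 5.58. Signals of different probe sets depend on their probes and give no order of transcript levels. Mrpl42, Mrpl33 and Mrpl51, proteins of the large subunit, had the brightest probe sets with means of 11.58, 10.71 and 10.02. Mrpl36, Mrps35 and Mrps18c had the dimmest, at 6.27, 6.39 and 6.48. Across the 24 arrays a gene's values spanned 0.54 in the median, and between 0.27 and 1.04.

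Many of the genes were high or low in the same arrays, and a few arrays were low for most of them. After group means were subtracted, a gene correlated with the mean of the other members with a median r of 0.476 over the 24 arrays, and 70 of 76 had an r above 0. The median r of all other genes with the mean of these 76 was 0.0422, and 4.35% of them exceeded 0.5, against 35 of the 76. Mrps27 (r = 0.831), Mrpl18 (0.829), Mrpl51 (0.818), Mrpl2 (0.81) and Mrpl12 (0.798) followed the mean most closely. Mrpl10 (r = -0.217), Mrpl44 (-0.0919), Mrpl22 (-0.0696) and Mrps12 (-0.0696) did so least. The arrays share their scaling, and the points share array quality, so these values are a description. In WT female 2, 66 of the 76 genes were below their own mean of 24 arrays and 19 had their lowest value of all. In Vps39+/- male 3, 61 genes were below their mean, and in WT female 3, 60 were. At the other end, 63 genes were above their mean in Vps39+/- male 6, 59 in Vps39+/- female 1 and 57 in WT female 5.

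**Figure D1:**
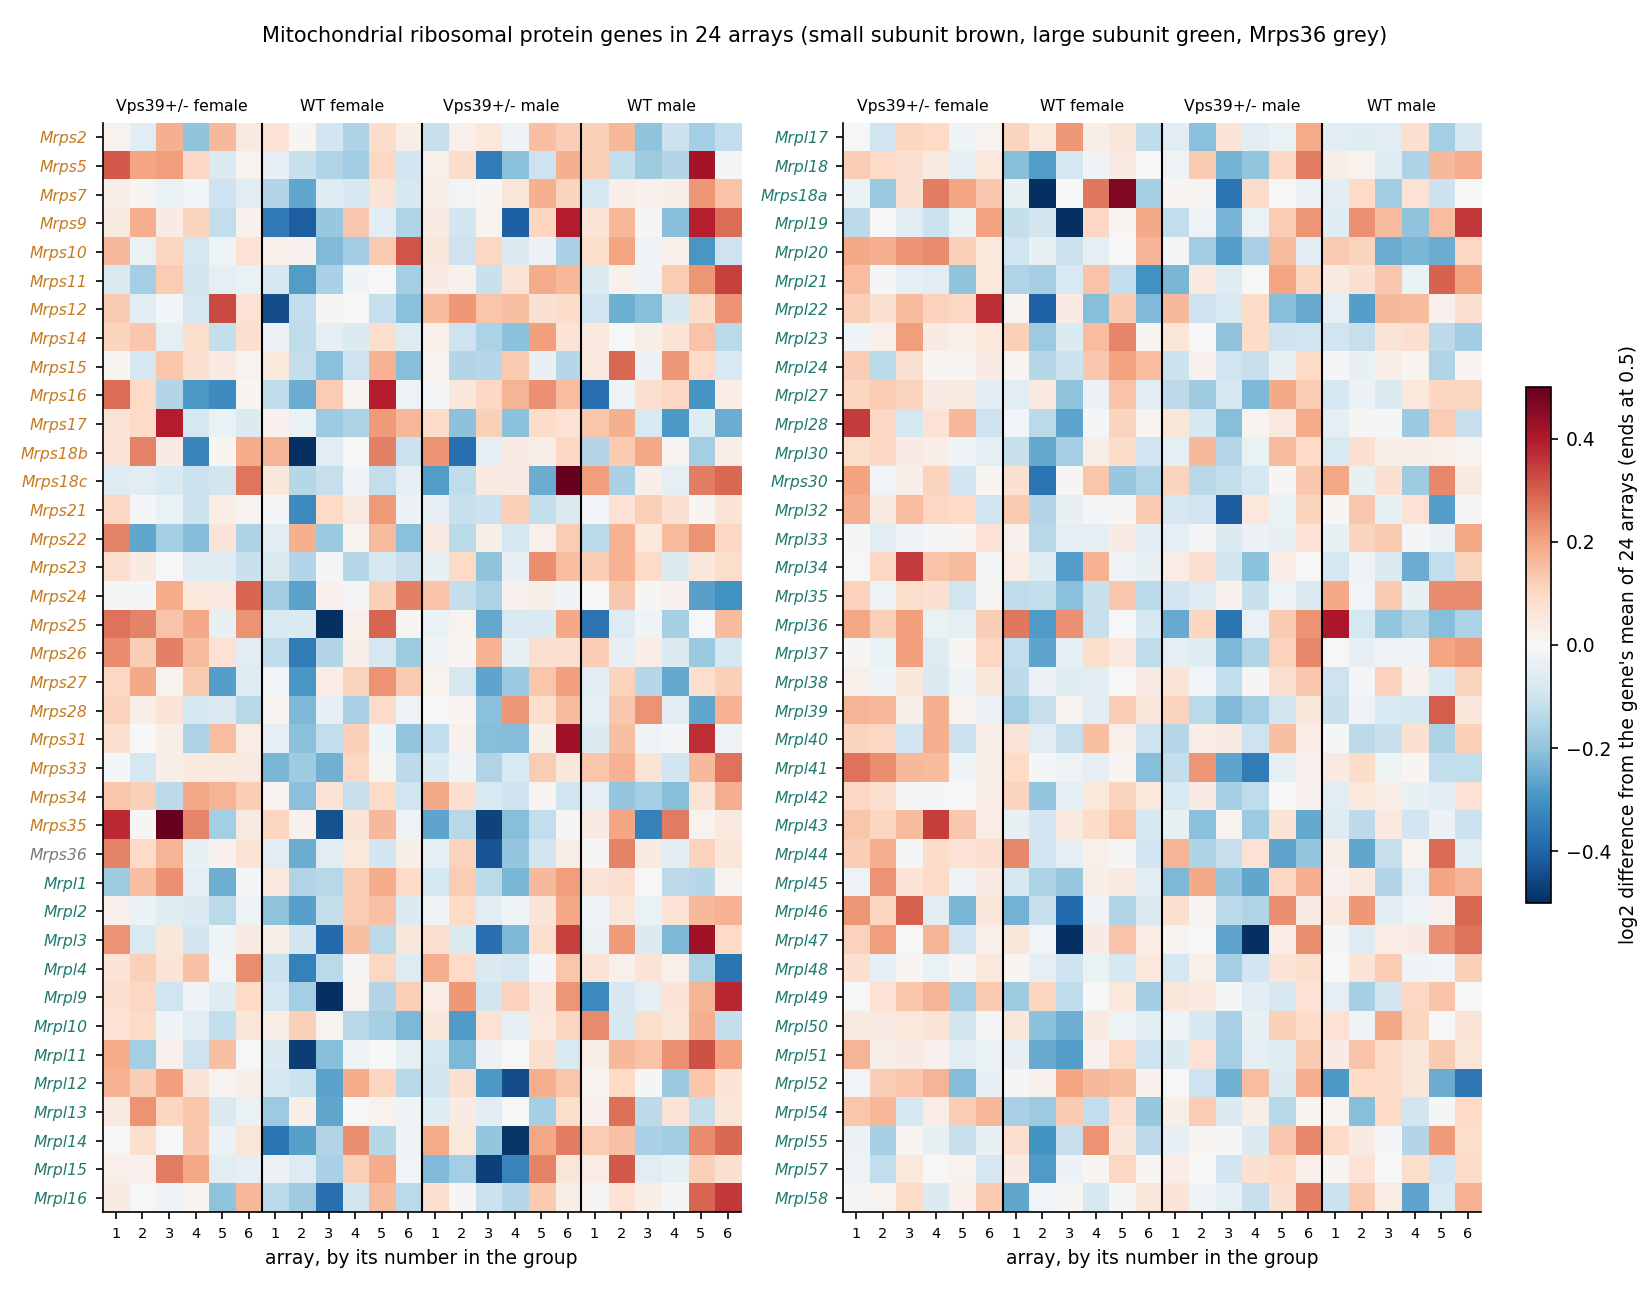
Each cell is the log2 RMA value of 1 gene in 1 array minus that gene's mean of the 24 arrays (red above, blue below, colours ending at 0.5), with arrays in columns by group and genes in rows by subunit. WT female 2, WT female 3 and Vps39+/- male 3 stand out as mostly blue columns, with 66, 60 and 61 of the 76 genes below their mean.

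The mean over the 76 genes was 8.14 ± 0.04 in Vps39+/- females and 8.05 ± 0.08 in WT females. It was 8.08 ± 0.08 in Vps39+/- males and 8.12 ± 0.04 in WT males (SD, n = 6 each). Vps39+/- females ran from 8.07 to 8.19 and WT females from 7.94 to 8.16, so the groups overlapped. Vps39+/- males, from 7.96 to 8.19, spanned the whole range of WT males, from 8.07 to 8.16. The lowest arrays were WT female 2, Vps39+/- male 3 and WT female 3, which had the first, the third and the fifth highest hepatocyte mean. Within groups the mean of the 76 genes and the hepatocyte mean had an r of -0.474 over the 24 arrays, and 65 of 76 genes had a negative r. Without the 4 arrays of highest hepatocyte mean the means were 8.14 in Vps39+/- females (n = 6) and 8.07 in WT females (n = 4), and 8.11 in Vps39+/- males (n = 4) and 8.12 in WT males (n = 6).

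**Figure D2:**
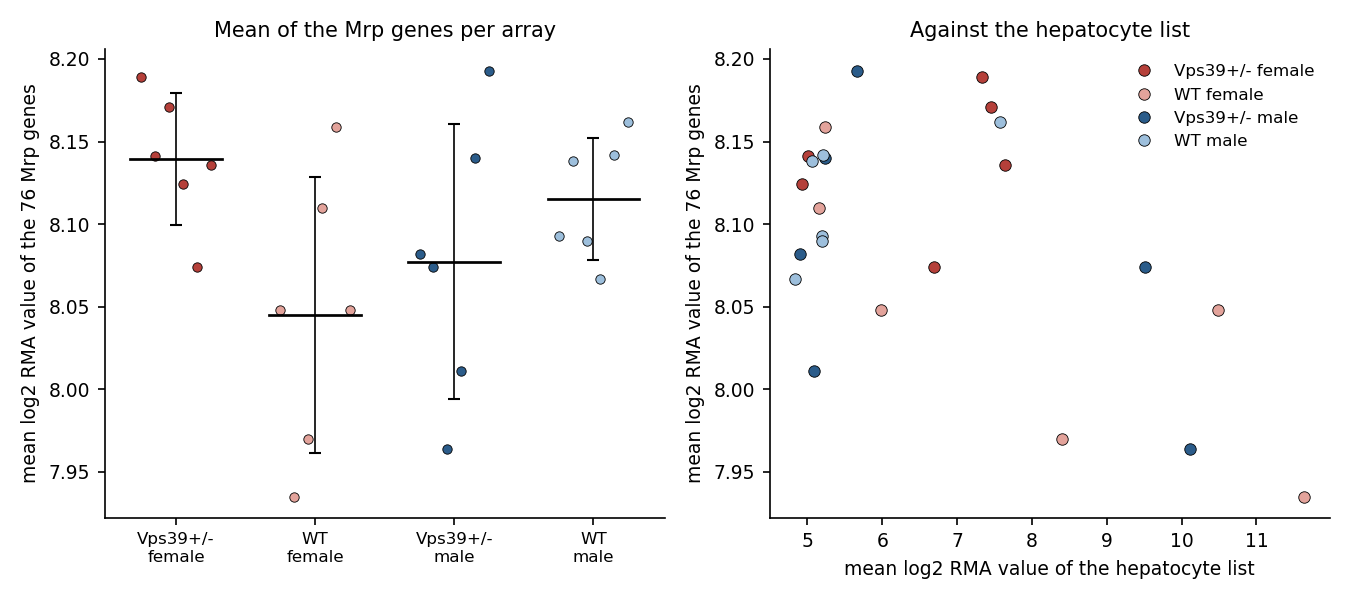
Left, the mean log2 RMA value of the 76 genes in each array by group, with the group mean as a line and the SD as a bar (n = 6). Right, the same values against the mean of the 23 hepatocyte markers, where WT female 2 (11.64) and Vps39+/- male 3 (10.11) lie low.

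Across all mice, genotype left no gene of the mitoribosome past the threshold. The difference between 12 Vps39+/- and 12 WT mice passed an adjusted p of 0.05 for 0 of the 76 genes, and for 0% of all 19572 probe sets (limma, Benjamini-Hochberg). At an unadjusted p under 0.05, 3 genes were higher in Vps39+/- mice (3.95% of the 76, against 4.72% of all probe sets as deposited). Lower at the same limit were 0 of the 76, against 2.62% of all probe sets. The differences ran from -0.081 to 0.2 with a median of 0.0151, against a median of 0.00795 over all probe sets, and 51 of 76 were above 0 (67.1%, against 53.2%). After a shift that gave all arrays 1 median, the median of the 76 was -0.00102 with 36 above 0, against -0.00817 over all probe sets, and after cyclic loess scaling it was 0.0264 with 58 above 0, against -0.00507. Over all probe sets the unadjusted calls, 924 higher and 512 lower as deposited, were 652 and 698 after that shift and 657 and 681 after cyclic loess. The 3 higher genes stayed 3 under both, where 3.33% and 3.36% of all probe sets were higher. Among the 8319 probe sets with mean values between 6 and 12, 256 were higher and 275 lower as deposited. By subunit, 18 of 25 small subunit genes and 33 of 50 large subunit genes were above 0, with medians of 0.0288 and 0.0144.

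Mrps26 and Mrps12, small subunit genes, and Mrpl4, a large subunit gene, were the 3. Mrps26 encodes a protein with no bacterial counterpart. Its lowest, median and highest values were 8.17, 8.30 and 8.47 in Vps39+/- mice, against 7.87, 8.13 and 8.34 in WT mice. All 12 Vps39+/- mice were above the WT mean, but the ranges overlapped. The difference was 0.18 (SE 0.053, 95% interval 0.07 to 0.29, adjusted p = 0.46), and without the 4 arrays it was 0.15 (adjusted p = 0.648). Mrps12 encodes a protein of the decoding centre, known in bacteria from mutations that make ribosomes resistant to streptomycin. Its values were 8.02, 8.21 and 8.43 in Vps39+/- mice, against 7.66, 8.00 and 8.33 in WT mice. Again 12 of 12 Vps39+/- mice exceeded the WT mean, within overlapping ranges. Here the difference was 0.2 (SE 0.064, interval 0.07 to 0.33, adjusted p = 0.508), and 0.17 without the 4 arrays (adjusted p = 0.692). Sars2, head to head with Mrps12, differed by 0.095 (adjusted p = 0.716).

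Mrpl4 encodes a protein that reaches into the wall of the exit tunnel. Its lowest, median and highest values were 7.65, 7.82 and 7.97 in Vps39+/- mice, against 7.37, 7.71 and 7.84 in WT mice. WT female 2 and WT male 6 were the lowest of all 24 mice, and 10 of 12 Vps39+/- mice were above the WT mean. The difference of 0.15 (SE 0.059, adjusted p = 0.603) was 0.13 without the 4 arrays and no longer under the unadjusted limit, where Mrpl20 came under it instead (0.16, adjusted p = 0.702). Next in the order of p came Mrps34, Mrpl34 and Mrps25, which were on average higher by 0.1 (SE 0.058, adjusted p = 0.747), 0.1 (SE 0.059, adjusted p = 0.756) and 0.14 (SE 0.079, adjusted p = 0.756). Human variants of MRPS34 and MRPS25 cause deficits of mitochondrial translation.

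On the low side the smallest p belonged to Mrps22, a small subunit gene whose human counterpart is a known disease gene. Its values were 6.41, 6.64 and 6.92 in Vps39+/- mice, against 6.47, 6.75 and 6.90 in WT mice. These ranges lay almost on each other, and the difference was -0.08 (SE 0.066, 95% interval -0.215 to 0.055, adjusted p = 0.854). Mrpl15 (-0.081, adjusted p = 0.872), Mrps21 (-0.054, adjusted p = 0.874), Mrpl11 (-0.043, adjusted p = 0.938), Mrpl35 (-0.03, adjusted p = 0.946) and Mrpl33 (-0.019, adjusted p = 0.955) followed, all large subunit genes but Mrps21. None of these can be called lower. The interval of Mrpl33, the narrowest of them, ran from -0.11 to 0.07.

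Other genes that the family's textbook roles single out lay close to 0. Mrpl12, a protein of the stalk that recruits translation factors to the large subunit, differed by 0.03 (SE 0.072, 95% interval -0.12 to 0.18, adjusted p = 0.961). Mrpl3 and Mrpl44, both linked to human cardiomyopathy, differed by -0.0061 (SE 0.082, interval -0.18 to 0.16) and 0.01 (SE 0.065, interval -0.12 to 0.14). Mrps16, a small subunit protein with a bacterial counterpart and a human disease gene, differed by 0.057 (SE 0.082, interval -0.11 to 0.23). None of the 4 intervals reached beyond -0.18 or 0.23. Chromosome 2, which carries Vps39, also holds 4 of the genes. Besides Mrps26 these were Mrps5, Mrps2 and Mrpl41, with differences of 0.067 (adjusted p = 0.901), 0.06 (adjusted p = 0.871) and 0.05 (adjusted p = 0.917). Their distance from Vps39 was not measured.

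**Figure D3:**
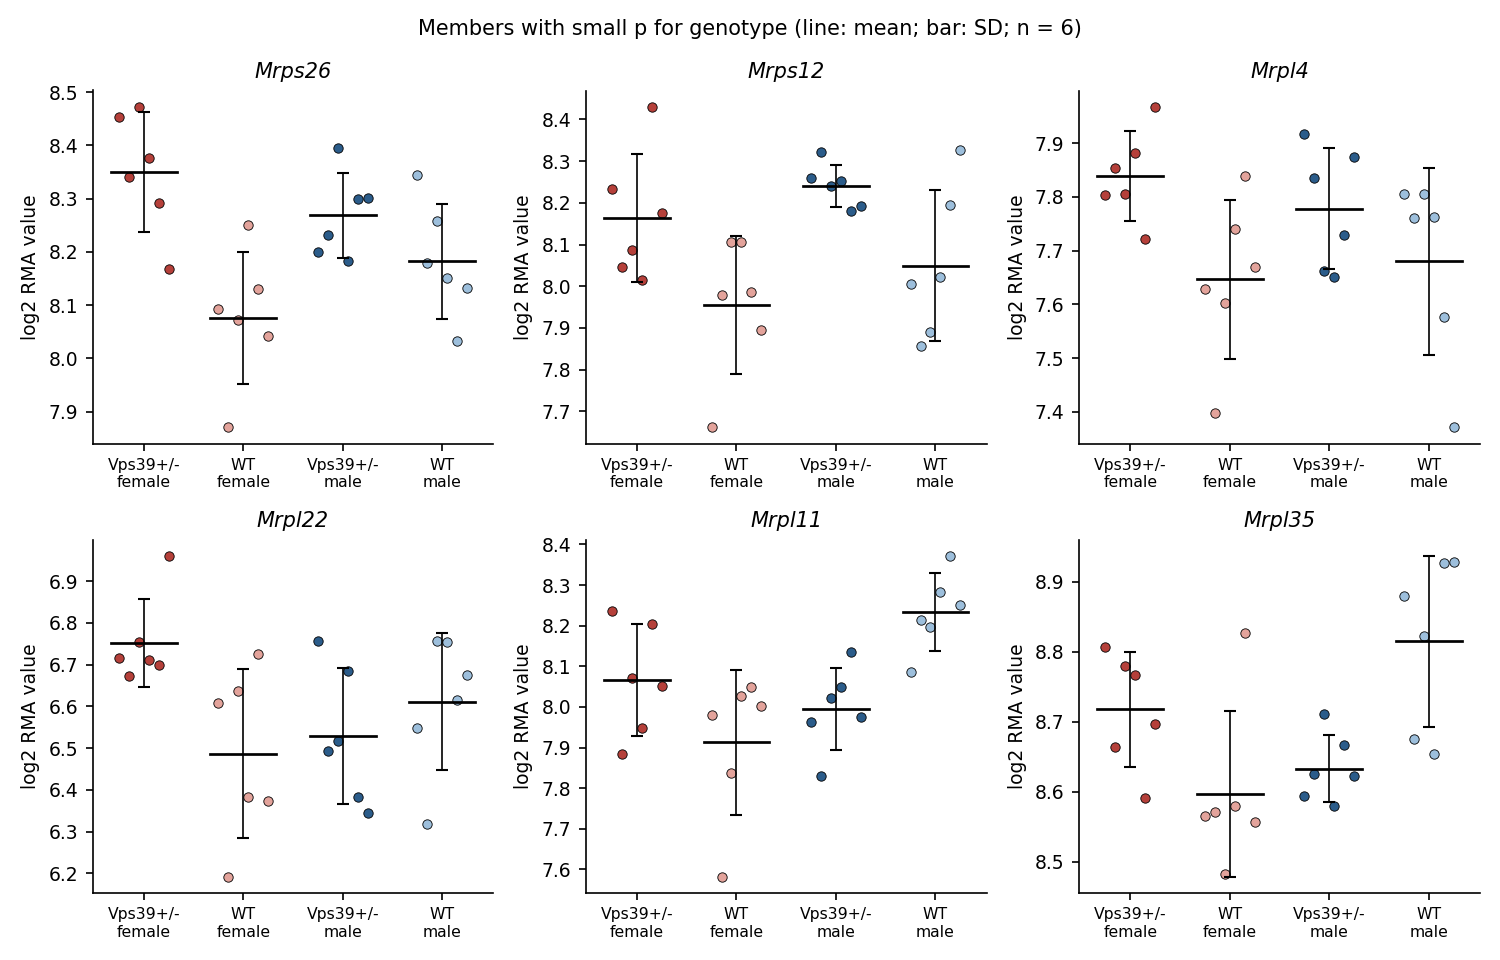
Log2 RMA values of 6 genes in each array by sex and genotype, with the group mean as a line and the SD as a bar (n = 6). Mrps26 and Mrps12 lie higher on average in Vps39+/- mice of both sexes, and Mrpl11 and Mrpl35 in Vps39+/- males lie mostly below WT males, with overlapping ranges throughout.

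Genotype was then set apart by sex. In females 0 genes, and 0% of all probe sets, passed an adjusted p of 0.05, but 67 of the 76 differences were above 0 (88.2%, against 56.5% of all probe sets). Their median was 0.0937, against 0.0226. At an unadjusted p under 0.05, 8 of the 76 were higher in Vps39+/- females (10.5%, against 5.36% of all probe sets) and 0 were lower (against 2.96%). The 8 were Mrps26, Mrpl22, Mrpl46, Mrps12, Mrpl4, Mrpl54, Mrpl20 and Mrps25. By subunit, 22 of 25 small subunit genes and 44 of 50 large subunit genes were above 0. By kind of protein, so were 40 of the 44 genes with a bacterial counterpart and 26 of the 31 without. Genes with mean values between 6 and 12, which are nearest to these in brightness, had a median of 0.0156.

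WT female 2 and WT female 6, which had the highest hepatocyte means, stood on the WT side of this comparison. The 10 endothelial markers, all measured, were read in the same way. In Vps39+/- females their mean was 7.60 (range 7.53 to 7.71), against 7.41 in WT females (range 7.21 to 7.66). In Vps39+/- males it was 7.47 (range 7.31 to 7.66), against 7.51 in WT males (range 7.36 to 7.61). It was lowest in WT female 3 (7.21), WT female 2 (7.22) and Vps39+/- male 3 (7.31), the same 3 arrays as for the mean of the 76 genes. The adipocyte mean was 6.153 in Vps39+/- females (range 6.002 to 6.4), against 6.607 in WT females (range 5.578 to 8.088). Macrophage markers averaged 5.788 against 5.955, fibroblast markers 8.616 against 8.757, red blood cell markers 6.405 against 6.444 and lymphocyte markers 4.205 against 4.09. The part of any of these lists in the result was not tested. Without the 4 arrays 3 genes remained under the limit (Mrps26, Mrpl46 and Mrpl20, with 3.1% of all probe sets higher), 61 were above 0 and the median was 0.0743. With the hepatocyte mean as a covariate the count was 4 (against 4.07% of all probe sets) and the median 0.0725. Leaving out WT female 2 alone gave 4 genes and leaving out WT female 5 gave 13, with no share of all probe sets beside these counts. The methods' t-test gave 14 (against 5.34% of all probe sets). With the number in the sample titles, whose meaning is not stated, as a block, 24 genes were higher (against 8.12%), 72 were above 0 and the median was 0.176. Cyclic loess gave 4 genes and a median of 0.0777, while calls over all probe sets, 1049 higher and 579 lower as deposited, were 676 and 901 there.

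Mrps26 differed by 0.27 in females (SE 0.072, adjusted p = 0.432). Its lowest, median and highest values were 8.17, 8.36 and 8.47 in Vps39+/- females, against 7.87, 8.08 and 8.25 in WT females. Of the 6 Vps39+/- females, 1 lay within the WT range. Mrpl22, which like Mrpl4 lines the exit tunnel, had values of 6.672, 6.713 and 6.961 in Vps39+/- females, against 6.192, 6.496 and 6.726 in WT females. Its highest value, in Vps39+/- female 6, stood apart from the other 5. The difference was 0.27 (SE 0.097, adjusted p = 0.531), and 0.16 without the 4 arrays (adjusted p = 0.868). Mrpl46, whose protein has no bacterial counterpart and whose gene lies head to head with Mrps11, had values of 6.36, 6.67 and 6.88 in Vps39+/- females, against 6.20, 6.46 and 6.57 in WT females. This difference was 0.23 (SE 0.092, adjusted p = 0.564), whereas Mrps11 differed by 0.07 (adjusted p = 0.834). On the low side Mrps16, Mrps22 and Mrpl52 differed by -0.081 (adjusted p = 0.872), -0.065 (adjusted p = 0.874) and -0.064 (adjusted p = 0.881).

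In males most differences lay below 0. Of the 76, 25 were above 0 (32.9%, against 49.5% of all probe sets), with a median of -0.0471 (against -0.00183). Again 0 genes and 0% of all probe sets passed an adjusted p of 0.05. At an unadjusted p under 0.05, 1 gene was higher in Vps39+/- males (1.32%, against 3.19% of all probe sets) and 3 were lower (3.95%, against 3.82%). With the title number as a block 11 were lower (against 4.84%). Among genes with means between 6 and 12 the median was -0.0244 and 41% were above 0. Without the 4 arrays the median was -0.0153 and 35 genes were above 0. There 0 were higher (against 3.38% of all probe sets) and 2 were lower (against 2.72%). The split of 1 higher and 3 lower was 0 and 6 after the median shift (against 1.85% and 5.71% of all probe sets). After cyclic loess it was 2 and 2 (against 3.07% and 3.6%). Over all probe sets 624 were higher and 747 lower as deposited, and 363 and 1117 after the median shift.

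Mrpl11, whose protein lies at the base of the stalk, had a lowest, median and highest value of 7.83, 8.00 and 8.13 in Vps39+/- males, against 8.09, 8.23 and 8.37 in WT males. Only 1 of the Vps39+/- males reached the WT range. The difference was -0.24 (SE 0.083, 95% interval -0.41 to -0.07, adjusted p = 0.628), and -0.2 without the 4 arrays (adjusted p = 0.785). Mrpl35, a large subunit gene, had values of 8.58, 8.62 and 8.71 in Vps39+/- males, against 8.65, 8.85 and 8.93 in WT males. All 6 Vps39+/- males were below the WT mean, by -0.18 on average (SE 0.068, adjusted p = 0.646). Mrpl15, another large subunit gene, had values of 7.31, 7.58 and 8.02 in Vps39+/- males, against 7.72, 7.83 and 8.08 in WT males. Its spread was wide among Vps39+/- males, and the difference of -0.22 (SE 0.1, adjusted p = 0.691) was -0.14 without the 4 arrays (adjusted p = 0.899).

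The gene with an unadjusted p under 0.05 and a higher mean in Vps39+/- males was Mrps12. Vps39+/- males had values of 8.18, 8.25 and 8.32, against 7.86, 8.01 and 8.33 in WT males. The Vps39+/- males lay close together inside the upper part of the WT range, and the difference was 0.19 (SE 0.09, adjusted p = 0.696). Mrps16 (0.2, SE 0.11, adjusted p = 0.755) and Mrps26 (0.086, SE 0.072, adjusted p = 0.832) came next.

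The difference between the sexes was tested itself, as the genotype difference in males minus that in females. It was below 0 for 67 of the 76 genes and above 0 for 9 (11.8%, against 44.6% of all probe sets), with a median of -0.132 (against -0.0248 over all probe sets and -0.041 over those of mean 6 to 12). No gene passed an adjusted p of 0.05, as was true of 0% of all probe sets. At an unadjusted p under 0.05, 9 genes had a negative value (11.8%, against 4.63% of all probe sets) and 0 a positive one (against 3.16%). Those 9 were Mrpl11, Mrpl35, Mrps36, Mrps33, Mrpl22, Mrps35, Mrpl51, Mrpl46 and Mrps15. Without the 4 arrays 3 of the 9 remained (Mrpl11, Mrpl35 and Mrps36), with a median of -0.084 and 19 genes above 0, and 2.63% of all probe sets were lower there. With the hepatocyte mean as a covariate 6 remained (against 3.04%), with a median of -0.101. With the title number as a block 30 were lower (against 7.08%), with a median of -0.246. Over all probe sets the calls, 619 higher and 906 lower as deposited, were 480 and 1146 after the median shift and 814 and 630 after cyclic loess, where the members counted 1 and 7 with a median of -0.0836. Leaving out single arrays gave between 6 and 15 genes, with the highest count without Vps39+/- male 5 and no share of all probe sets beside these counts.

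Mrpl11 had the smallest p, with an interaction of -0.39 (SE 0.12, 95% interval -0.64 to -0.15, adjusted p = 0.609). In females it differed by 0.15, since Vps39+/- females had values of 7.88, 8.06 and 8.24, against 7.58, 7.99 and 8.05 in WT females. Much of the width of the WT female range came from WT female 2. Mrpl35 had an interaction of -0.3 (SE 0.097, adjusted p = 0.632), and its female values were 8.59, 8.73 and 8.81 in Vps39+/- mice, against 8.48, 8.57 and 8.83 in WT mice. In Mrps36, which was kept apart from both subunits, the interaction was -0.33 (SE 0.12, adjusted p = 0.632). Its values were 8.80, 8.92 and 9.08 in Vps39+/- females, against 8.59, 8.78 and 8.89 in WT females, and 8.40, 8.76 and 8.95 in Vps39+/- males, against 8.77, 8.88 and 9.08 in WT males. The ranges overlapped in both sexes. Mrps35 had the most negative interaction, -0.43 (SE 0.17, adjusted p = 0.632), but is also among the dimmest and most variable of the family, with a within-group SD of 0.22. On the positive side stood Mrps16 with 0.28 (SE 0.16, adjusted p = 0.685), Mrpl52 with 0.16 (SE 0.135, adjusted p = 0.813) and Mrpl17 with 0.078 (SE 0.1, adjusted p = 0.891).

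**Figure D4:**
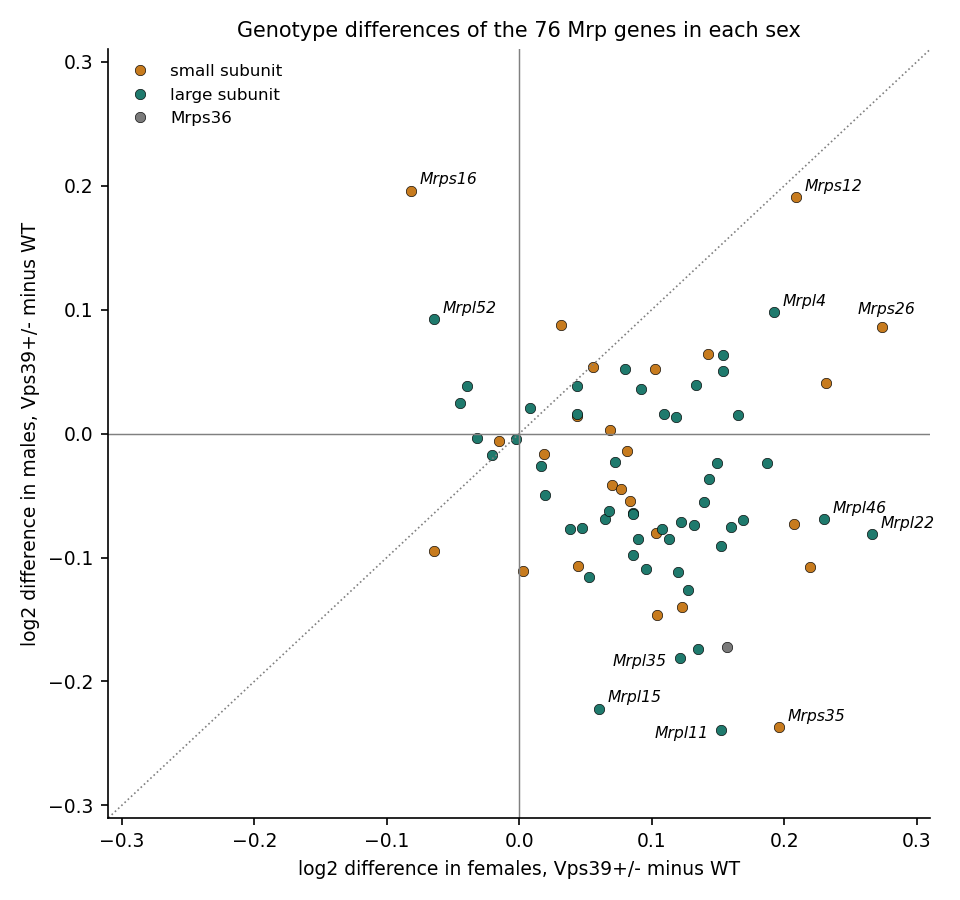
Genotype difference (Vps39+/- minus WT, log2) of each of the 76 genes in females on the horizontal axis and in males on the vertical axis, coloured by subunit, with equality as a dotted line. Points crowd to the right of 0 (67 of 76) and below 0 (51 of 76), and Mrps12, Mrpl4 and Mrps26 lie above 0 on both axes.

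Between 12 males and 12 females 0 of the 76 genes passed an adjusted p of 0.05, whereas 3.38% of all probe sets did. At an unadjusted p under 0.05, 6 genes were higher in males (7.89%, against 8.53% of all probe sets) and 2 were lower (2.63%, against 7.12%). The median was 0.00298, 39 of 76 were above 0, and the sign turned under cyclic loess (-0.0067). Higher were Mrps11, Mrps7, Mrps23, Mrpl21, Mrpl2 and Mrpl11, of which the first 3 are small subunit genes, and lower were Mrpl43 and Mrpl20. The 6 and 2 became 2 and 5 after cyclic loess (against 7.7% and 8.26% of all probe sets). In Vps39+/- mice alone 0 genes were higher in males (against 5.84% of all probe sets) and 6 lower (against 6.62%), with a median of -0.055. In WT mice alone 10 were higher (against 7.07%) and 0 lower (against 4.59%), with a median of 0.0743, and the difference between these is the interaction above.

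Mrpl43, a large subunit gene without a bacterial counterpart, came nearest to the threshold. Males had a lowest, median and highest value of 6.42, 6.59 and 6.74, against 6.58, 6.77 and 7.02 in females. All 12 males were below the female mean, while the ranges overlapped. The difference was -0.16 (SE 0.05, 95% interval -0.27 to -0.06, adjusted p = 0.0706). Its adjusted p was 0.0327 when the fit was limited to probe sets averaging at least 5. Twnk, head to head with Mrpl43, differed by -0.23 (adjusted p = 0.273). Mrpl20, whose bacterial counterpart acts early in the assembly of the large subunit, had values of 7.56, 7.73 and 7.99 in males, against 7.73, 7.92 and 8.07 in females. Its difference was -0.15 (SE 0.061, adjusted p = 0.22), with 8 of 12 males below the female mean.

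Mrps11, a protein of the platform of the small subunit, was on average higher in males. Its values were 8.24, 8.41 and 8.69 in males, against 8.07, 8.27 and 8.48 in females, so 11 of 12 males exceeded the female mean. The difference was 0.17 (SE 0.055, adjusted p = 0.104). Mrpl46, head to head with Mrps11, differed by 0.097 (adjusted p = 0.511). Mrps7, a protein of the head of the small subunit, had values of 9.00, 9.11 and 9.30 in males, against 8.82, 9.02 and 9.15 in females (0.12, SE 0.046, adjusted p = 0.163). Mrps23 differed by 0.11 (SE 0.049, adjusted p = 0.252) and Mrpl21 by 0.13 (SE 0.059, adjusted p = 0.275), with 10 and 11 of 12 males above the female mean. On the low side Mrpl23, a tunnel exit protein, differed by -0.1 (SE 0.054, adjusted p = 0.372) and Mrpl41 by -0.11 (SE 0.06, adjusted p = 0.383).

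**Figure D5:**
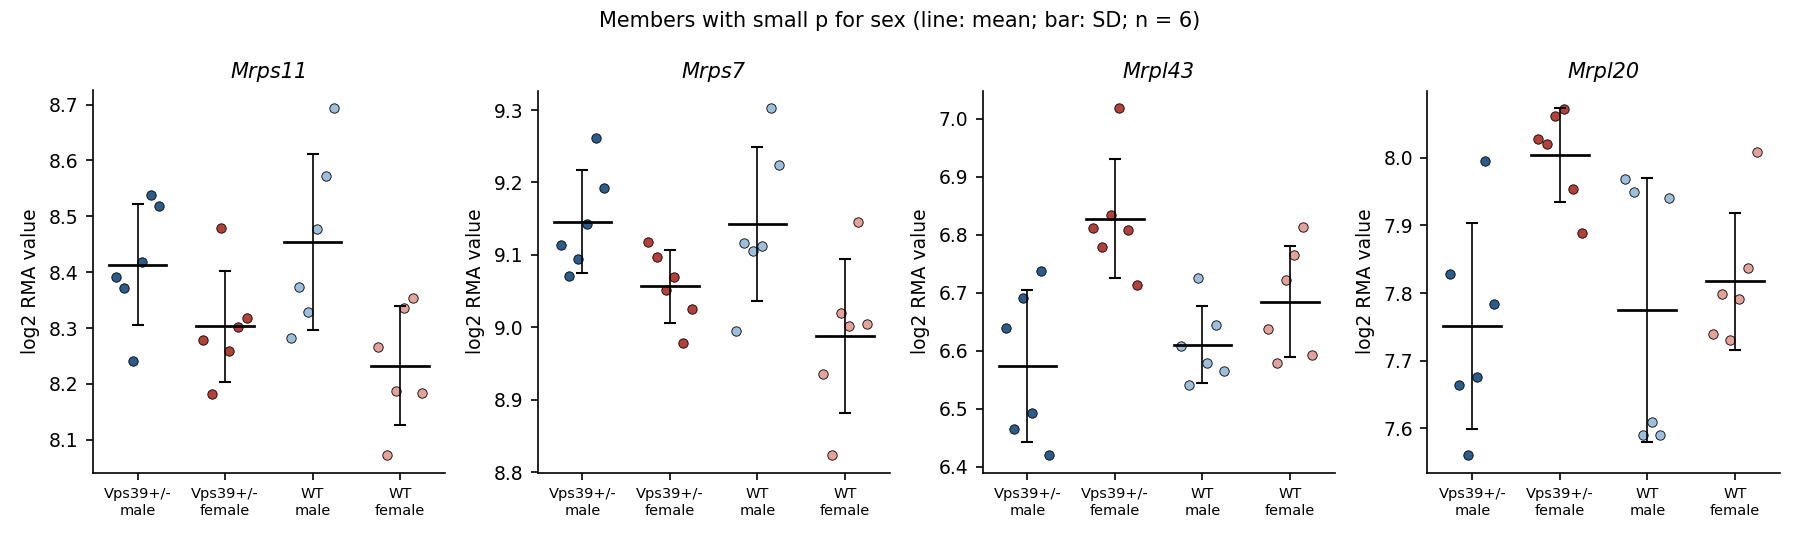
Log2 RMA values of 4 genes in each array, males beside females within each genotype, with the group mean as a line and the SD as a bar (n = 6). Mrps11 and Mrps7 lie higher on average in males of both genotypes and Mrpl43 and Mrpl20 lower, with overlapping ranges.

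The 3 genes with the largest spread within groups were Mrpl47 (SD 0.22), Mrps35 (0.22) and Mrps18a (0.21). Mrpl47, a protein beside the tunnel exit, was as low as 5.94 in WT female 3, while the other 5 WT females lay between 6.58 and 6.73. Mrps18a ran from 7.61 to 8.59 in WT females, against 7.94 to 8.38 in Vps39+/- females. Neither set of values gave a difference between genotypes beyond this spread (-0.019, SE 0.091, for Mrpl47 and 0.025, SE 0.084, for Mrps18a).

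Genes that act with the mitoribosome were counted in the same way. Over all probe sets 53.2% were above 0 across all mice, 56.5% in females and 49.5% in males. Counts for these lists and those below are not given without the 4 arrays of highest hepatocyte mean. Of 6 mitoribosomal proteins that do not bear an Mrp symbol 4 were measured, and all 4 were above 0 in females (median 0.11) and below 0 in males (median -0.155). Chchd1, a small subunit protein, differed by -0.23 in males (adjusted p = 0.612) and had an interaction of -0.35 (adjusted p = 0.609). Ptcd3 and Dap3, also of the small subunit, differed by 0.063 (adjusted p = 0.901) and -0.045 (adjusted p = 0.917) across all mice. Of 26 measured factors (32 listed) that build the mitoribosome, 19 were above 0 across all mice and 2 were higher at an unadjusted p under 0.05 (against 4.72% of all probe sets). These were Rpusd3 (0.2, SE 0.0615, adjusted p = 0.472), which serves the RNA of the large subunit, and Mettl15 (0.31, SE 0.13, adjusted p = 0.634), which methylates the RNA of the small subunit. Mettl15 differed by 0.68 in females (adjusted p = 0.357) and by -0.067 in males. Its probe set was dim, with a mean of 5.072 against a median of 5.58 over all named probe sets. Mrm2, another RNA methyltransferase, differed by 0.12 (adjusted p = 0.731). Mtg2, a GTPase of large subunit assembly, was the 1 gene of this list past the threshold for sex and was lower in males (-0.32, adjusted p = 0.016), and it is named here after its values were seen.

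Of 16 measured mitochondrial translation factors (18 listed), 14 were above 0 in females (median 0.0902) and all 16 below 0 in males (median -0.0962). Above 0 were 56.5% of all probe sets in females and 49.5% in males, and 41% in males among those of mean 6 to 12. Metap1d, Mtrf1l and Oxa1l, which trim, release and insert the new chains, had the smallest p across all mice, with differences of -0.11 (adjusted p = 0.805), -0.08 (adjusted p = 0.847) and 0.061 (adjusted p = 0.848). Among 11 measured genes (12 listed) for copying and reading mitochondrial DNA, Polg2 differed by 0.2 (SE 0.097, adjusted p = 0.676), Polrmt by -0.12 (adjusted p = 0.846) and Twnk by -0.13 (adjusted p = 0.854). The Polg2 probe set was also dim, with a mean of 5.065. Of 10 measured regulators (11 listed) of nuclear genes for mitochondria, Nrf1 differed by -0.14 (SE 0.067, adjusted p = 0.669), Myc by 0.22 (adjusted p = 0.777) and Pprc1 by 0.11 (adjusted p = 0.779). At an unadjusted p under 0.05 across all mice, 0 translation factors, 1 mitochondrial DNA gene (Polg2, higher) and 1 regulator (Nrf1, lower) were counted. Over all probe sets 4.72% were higher and 2.62% lower at that limit. None of these lists' genes passed an adjusted p of 0.05.

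The subunits of the respiratory chain, part of which the mitoribosome makes, had differences of the same sign within each sex. Over all probe sets 56.5% were above 0 in females, 49.5% in males and 44.6% for the interaction. Of 74 measured nuclear genes (76 listed), 73 were above 0 in females (median 0.109, 17 higher and 0 lower at an unadjusted p under 0.05, against 5.36% and 2.96% of all probe sets) and 66 were below 0 in males (median -0.0521, 0 higher and 3 lower, against 3.19% and 3.82%). The interaction was below 0 for all 74, with a median of -0.176, and 17 had an unadjusted p under 0.05 (against 4.63%). For the 76 Mrpl and Mrps genes, Mrps36 among them, these medians were 0.0937, -0.0471 and -0.132. The lists share the same arrays, and 0 genes of either passed an adjusted p of 0.05 for genotype or for the interaction.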

How the data were processed

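Per the submitters' processing notes the authors used Affymetrix Expression Console 1.4.1.46 and RMA, which corrects background, brings the arrays to a shared distribution and summarises probes, and deposited log2 values, so that a change common to most genes is lost. The genome build of the array annotation: not given in the sources used here. In all, the table held 28846 rows, of which 6640 were controls; of the other 22206, 19572 carried 1 symbol, 0 several and 2634 none. All 19572 symbols matched RefSeq by Entrez identifier. Groups came from the labels. Each array was 1 mouse. A replicate number follows accession order and pairs no mice. Arrays have no read depth, and their number limits the precision.

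limma 3.58.1 (R 4.3.3) was fitted to all 19572 probe sets, for genotype over 24 arrays without covariates, as in the unpaired tests of the study, and otherwise as 4 group means with a common variance. All tests, two-sided, had Benjamini-Hochberg adjustment and a threshold of 0.05. The fit was checked on simulated data. The genes and lists were chosen with earlier results of these data known. Genes named were those of smallest p in each direction (6 for genotype, 3 within sexes and for the interaction, 4 for sex), the 3 brightest, 3 dimmest and 3 most variable, 6 of textbook role, and up to 3 for each further list. Alternatives were median shift, cyclic loess, a mean of at least 5, all non-control probe sets, trend with robust prior, array weights, the methods' t-test, the 4 arrays of highest hepatocyte mean left out, that mean or sex as covariate, 1 genotype alone, the title number as a block and each array left out. Promoters were read from RefSeq windows and figures drawn with matplotlib 3.10.9 in Python 3.11.15.

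The number before the point in the titles has no stated meaning. Among females numbers 2 and 4 hold only Vps39+/- mice and 6 and 7 only WT mice. Among males number 7 holds only Vps39+/- mice. A running number that opens the titles follows the groups, so any order it marks and the groups cannot be told apart.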

Additional observations from a re-analysis of the deposited data

Results flagged for a closer look

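In 11 of 148 groups of 6 arrays examined for the named genes, 1 array stood apart from the other 5 by Dixon's test, and chance alone flags about 1 in 20 groups. Many named genes were picked from these same values, Mrpl47, Mrps35 and Mrps18a for their large spread, so that rate is only a rough guide. Vps39+/- females gave 4 of them. Vps39+/- female 6 was high for Mrpl22 (6.961, the others from 6.672 to 6.754) and for Mrps18c (6.75, from 6.375 to 6.429). Vps39+/- female 3 was high for Mrpl23 (9.254, from 9.022 to 9.096) and low for Mrps34 (8.193, from 8.441 to 8.511). Among WT females, WT female 3 was low for Mrpl47 (5.941, from 6.58 to 6.734) and Mrps35 (5.955, from 6.366 to 6.554). WT female 5 was high for Mrpl35 (8.827, from 8.482 to 8.579) and WT female 1 for Mrpl44 (7.455, from 7.118 to 7.243). In Vps39+/- males, male 3 was low for Mrps18a (7.756, from 8.092 to 8.214) and male 4 high for Mrps21 (9.703, from 9.465 to 9.541). WT male 1 was high for Mrpl36 (6.678, from 6.061 to 6.187).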

How the results depend on the processing

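Counts are of genes among the 76 at an unadjusted p under 0.05, as higher and lower, beside how many lay above 0 and the median difference. Percentages in brackets are shares of all probe sets called in the same direction under the same setting. In females the 8 higher genes became 4 with cyclic loess (3.45%), 5 with array weights (4.73%) and 14 with the methods' t-test (5.34%). Without the 4 arrays of highest hepatocyte mean they became 3 (3.1%), and 4 with that mean as a covariate (4.07%). With the title number as a block they became 24 (8.12%, median 0.176). In males the 1 higher gene became 0 with the median shift (1.85%), without the 4 arrays (3.38%) and with the covariate (3.79%), and 2 with cyclic loess (3.07%). The 3 lower genes became 6 with the median shift (5.71%), 5 with trend and robust prior (4.08%) and 11 with the title block (4.84%), where 15 genes lay above 0. For the interaction the 9 lower genes became 3 without the 4 arrays (2.63%) and 30 with the title block (7.08%, median -0.246). The 0 higher became 1 with cyclic loess (4.16%). The 9 above 0 became 5 with the median shift and with the title block, 19 with cyclic loess and without the 4 arrays, and 18 with the covariate. For sex 1 gene, Mrpl43, passed an adjusted p of 0.05 with a mean of at least 5 and with the methods' t-test. Over all probe sets 855 of 11780 and 716 of 19572 did so. The 6 higher genes became 2 with cyclic loess (7.7%) and with the covariate (7.53%), and 3 without the 4 arrays (7.44%). They became 0 in Vps39+/- mice only (5.84%), where 18 lay above 0, and 10 in WT mice only (7.07%, median 0.0743). The 2 lower became 5 with cyclic loess (8.26%), 4 with the covariate (7.94%), 1 with the title block (6.21%), 6 in Vps39+/- mice only (6.62%) and 0 in WT mice only (4.59%). Signs turned for Mrps16 and Mrpl52 in females with the title block (0.0555 and 0.0384) and for Mrpl41 by sex in WT mice only (0.00895). The causes were not tested.

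Leaving out 1 array at a time gave 3 to 5 higher (5 without WT male 6) and 0 lower genes for genotype, with medians of 0.00393 to 0.0365 and 42 to 59 above 0. It gave 4 to 13 higher in females (medians 0.0781 to 0.117, 61 to 70 above 0), and in males 0 to 1 higher and 2 to 6 lower (6 without Vps39+/- male 6, medians -0.0633 to -0.0203, 18 to 33 above 0). For the interaction it gave 0 to 1 higher and 6 to 15 lower (medians -0.152 to -0.109), and 6 to 16 above 0, with 16 without WT female 2 and 6 without WT female 5. For sex it gave 0 to 1 past the adjusted threshold, 2 to 8 higher (2 without Vps39+/- male 5), 2 to 5 lower (5 without WT female 3), medians of -0.0081 to 0.0168 and 36 to 45 above 0. No share over all probe sets is given for the fits with 1 array left out, so their counts have no background beside them. No gene had more than 1 probe set, so counting all of them changed nothing. No paired analysis was possible because the replicate numbers follow accession order and the labels pair no mice. Among females number 1 is the only title number with both genotypes, so the blocked female values also draw on how males differ between numbers. Males of number 7 are all Vps39+/-, so the blocked male values draw in part on how females differ between numbers.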
